A study of Homo sapiens with 3 samples.

Results

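The cells described here are the KLK2-high and KLK2-low ends of VCaP-ENZ48, a Drop-seq library of the prostate cancer cell line VCaP after 48 h in 10 µM enzalutamide (ENZ), a drug that blocks androgen signalling. Kept cells had at least 4000 unique molecular identifiers (UMIs, each 1 captured transcript), at least 300 detected genes and at most 25% mitochondrial UMIs, and were ordered by KLK2 UMIs over all UMIs of the cell. The top 20% (KLK2-high, 163 cells) were then compared with the bottom 20% (KLK2-low, 163 cells) across all other genes. These 326 cells came from 816 kept cells of this library and 2556 kept cells in the 3 libraries together. The other libraries were VCaP parental, the same line in the vehicle 0.1% DMSO for 48 h, and LNCaP-ENZ168, another prostate cancer line after 168 h in 10 µM ENZ. The labels call both lines sensitive to ENZ. Each condition was 1 library of cultured cells, so no test between conditions or between the ends of the ranking was possible, and every interval given is a 95% interval of counting error only.

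KLK2 encodes kallikrein-related peptidase 2, a serine protease that luminal prostate epithelium secretes into seminal fluid and that activates the KLK3 product (prostate-specific antigen). Its transcription depends on androgen in prostate cells, through DNA elements built from 6-base half-sites that steroid receptors bind. Luminal secretory cells make large amounts of a few such proteins, among them acid phosphatase, and pass them through the endoplasmic reticulum (ER), Golgi and vesicles. VCaP carries a fusion that places the ETS factor gene ERG under the androgen-responsive TMPRSS2 promoter.

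KLK2 lies on chromosome 19, and its upstream sequence is shown beside those of 3 genes with large differences between the ends of the ranking and 1 annotated start each. They are ACP3 (listed in the files as ACPP, prostatic acid phosphatase), RDH11 (a retinal reductase) and BBS4 (a component of the BBSome, which carries cargo to cilia). Each window holds the 250 bases before the RefSeq start on GRCh38.p14, 5′ to 3′ on the gene's strand, at chr19:50873189-50873438 for KLK2, chr3:132317157-132317406 for ACP3, chr14:67695765-67696014 on the minus strand for RDH11 and chr15:72685957-72686206 for BBS4. Capitals mark the half-sites AGAACA and GGAACA, searched on both strands (TGTTCT and TGTTCC on the other).
KLK2: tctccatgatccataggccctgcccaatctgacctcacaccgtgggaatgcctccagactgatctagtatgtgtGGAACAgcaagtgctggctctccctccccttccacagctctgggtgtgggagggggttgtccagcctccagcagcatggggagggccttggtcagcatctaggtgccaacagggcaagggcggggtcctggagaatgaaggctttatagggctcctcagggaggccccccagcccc
ACP3: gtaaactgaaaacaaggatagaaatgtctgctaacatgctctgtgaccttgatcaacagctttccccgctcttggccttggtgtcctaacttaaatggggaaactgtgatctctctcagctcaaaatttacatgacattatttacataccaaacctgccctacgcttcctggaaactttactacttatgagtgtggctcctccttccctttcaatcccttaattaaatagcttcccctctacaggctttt
RDH11: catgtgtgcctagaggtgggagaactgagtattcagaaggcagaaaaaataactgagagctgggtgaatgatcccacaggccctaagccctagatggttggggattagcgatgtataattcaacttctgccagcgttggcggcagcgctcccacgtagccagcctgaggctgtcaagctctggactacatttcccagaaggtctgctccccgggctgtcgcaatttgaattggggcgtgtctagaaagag
BBS4: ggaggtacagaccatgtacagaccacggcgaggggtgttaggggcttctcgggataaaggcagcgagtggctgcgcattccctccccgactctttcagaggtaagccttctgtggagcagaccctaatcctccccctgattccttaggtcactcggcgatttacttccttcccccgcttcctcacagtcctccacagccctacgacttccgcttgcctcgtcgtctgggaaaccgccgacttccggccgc

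The KLK2 window held 1 half-site, GGAACA, beginning 176 bases before the start, and the windows of ACP3, RDH11 and BBS4 held neither half-site. Either half-site was present upstream of 25.9% of 27305 genes with a RefSeq window, and the full palindrome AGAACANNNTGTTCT upstream of 1 of them. Of the genes at least 1.5-fold higher in KLK2-high cells, 39 of 195 with a window (20.0%) held either half-site. The share was 20.7% of the 3893 compared genes with a window. In these windows the genes higher in KLK2-high cells thus did not carry the half-sites more often than the genes compared as a whole. A gene with several windows was counted if any of them held a half-site. There were 319 windows for the 195 genes, 5676 for the 3893 and 35116 for the 27305. Sequence further from the start was not searched.

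The ranking separated cells over a wide range of KLK2. KLK2-low cells held KLK2 at 957 counts scaled to a common library total (CPM, from UMIs summed over the 163 cells, interval 921 to 994) and KLK2-high cells 6091 CPM (5991 to 6193), a 6.37-fold difference that the rule itself produced. Single KLK2-low cells ran from 0 to 1606 CPM with a median of 1045, and single KLK2-high cells from 4599 to 14767 CPM with a median of 5631. The last cell inside the low group was at 1606 CPM and the first outside at 1624 CPM, and the last inside the high group was at 4599 CPM with 4590 CPM just outside, so the ends were parts of a continuous range. Over 5 equal bins of the ranking from low to high, KLK2 was at 957, 2040, 2847, 3877 and 6091 CPM.

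The spread in KLK2, which takes in any technical differences between barcodes, exceeded counting error. Its variance over the 816 cells was 24.6 times the variance that Poisson counting at each cell's depth gives, which left a coefficient of variation of 0.53 beyond counting. When each cell's UMIs were divided at random into 2 parts, ranked on one and measured in the other, the KLK2 difference was still 5.21-fold (1115 against 5813 CPM). Only 1 of the 816 kept cells had no KLK2 UMI. KLK2 share did not follow depth (Spearman's rho across cells -0.04, with depth in the denominator of the share).

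**Figure D1:**
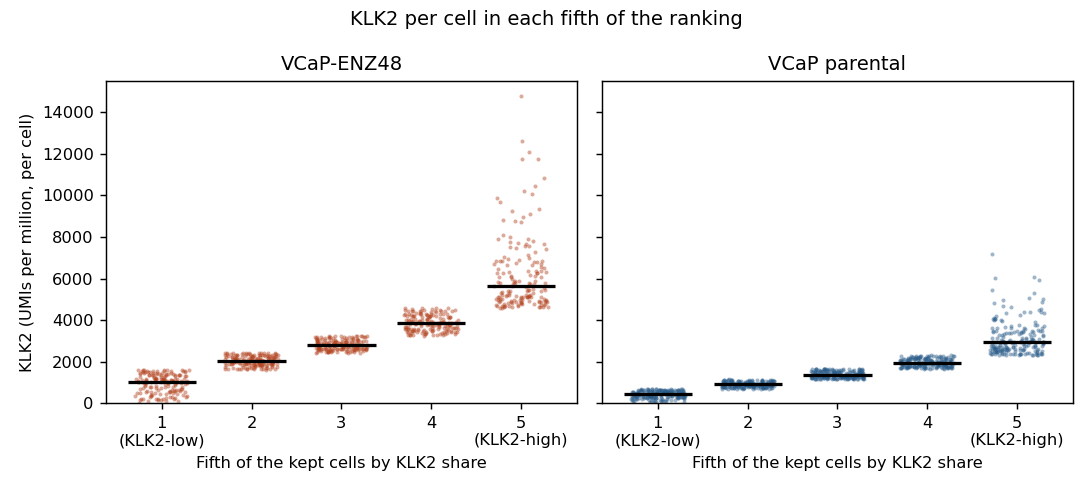
KLK2 level (CPM) in each kept cell (points) of VCaP-ENZ48 and VCaP parental, by bin of the KLK2 ranking, with the median of each bin as a bar. KLK2 ran without a gap from the lowest to the highest cells in both libraries, and the VCaP parental cells sat lower (1554 CPM over all kept cells, against 3054 CPM in VCaP-ENZ48).

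The ends of the ranking were alike in median depth and mitochondrial share, while the KLK2-low end held the deepest cell and a larger ribosomal share. Median UMIs per cell were 12177 in KLK2-high and 13030 in KLK2-low cells, median genes per cell were 3673 and 3687, and mitochondrial UMIs made up 7.29% and 7.28%. Summed UMIs were 2309762 in KLK2-high and 2763021 in KLK2-low cells, and the deepest cell had 49933 and 117469 UMIs. Cytosolic ribosomal protein UMIs made up 21.3% of KLK2-high and 24.4% of KLK2-low UMIs. Most barcodes ended in the undetermined base N (91.4% of KLK2-high and 87.1% of KLK2-low cells), and each pair of libraries shared 1 barcode. Genes that mark the VCaP line (ERG, ITM2A, ADIRF, S100A10 and TSPAN8) summed to 4946 and 3481 CPM in KLK2-high and KLK2-low cells and those of LNCaP to 13.0 and 21.4 CPM. Of the markers of other cells, 5 of 9 immune genes were in the table and summed to 2.60 and 2.53 CPM, 2 of 5 basal epithelial genes to 0.43 and 1.81 CPM, 2 of 5 erythroid genes to 3.03 and 6.15 CPM, and none of 5 endothelial genes was listed. The fibroblast genes summed to 32.04 and 23.5 CPM, nearly all from LUM (lumican, 31.6 and 21.4 CPM), while 4 of the 7 listed had no UMI. Both ends were thus VCaP cells by these markers, with the luminal keratins KRT8 at 258 and 188 CPM and KRT18 at 470 and 370 CPM.

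Genes differed mostly by little. Of 4850 genes that averaged 25 CPM or more over the ends, 253 (5.22%) were at least 1.5-fold higher in KLK2-high cells and 155 (3.20%) at least 1.5-fold lower, on the scale of log2(CPM + 1), which understates differences of low genes. The median log2 ratio was 0.03, and 2621 of the 4850 genes had log2 ratios above 0. In an alternative, mitochondrial, ribosomal protein, MALAT1 and NEAT1 UMIs were left out before ranking, so the 163 cells of each end were chosen again. Of 6303 genes then compared, 305 (4.84%) were higher and 294 (4.66%) lower. Genes higher in KLK2-high cells thus made up 50.9% of those past 1.5-fold instead of 62.0%. Of the 253 higher genes, 100 (39.5%) increased at every step over the 5 bins, as did 4.25% of all genes compared, and of the 155 lower genes 39 (25.2%) decreased at every step against 2.93% of all. The first and last steps are the contrast that chose these genes, so the bins between them are the only added values.

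**Figure D2:**
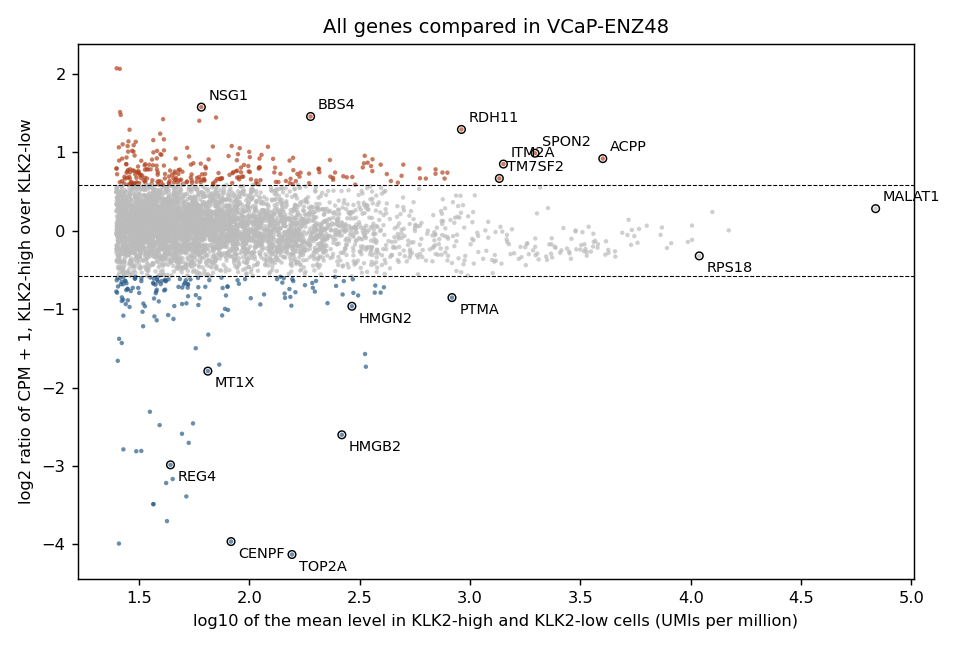
Each gene compared in VCaP-ENZ48 by the log10 of its mean level (CPM) and the log2 ratio of CPM + 1, KLK2-high over KLK2-low, with dashed lines at 1.5-fold and the genes past it in red (253 higher) and blue (155 lower). Abundant secretory genes such as ACPP and SPON2 sit near a log2 ratio of 1, and the lowest points are mitotic genes such as TOP2A at -4.13.

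Products of prostate secretory epithelium were higher in KLK2-high cells as a group. Of 26 listed genes (KLK2 left out of every list value), 21 were in the table and 12 were compared, and 7 of these 12 (58.3%, against 5.22% of all genes) were at least 1.5-fold higher and none lower. The list median lay 0.59 log2 units above that of all genes. ACPP was at 5225 CPM (12069 UMIs) in KLK2-high and 2766 CPM (7643 UMIs) in KLK2-low cells, a log2 ratio of 0.92 (0.88 to 0.96). SPON2, an extracellular matrix protein, was at 2619 and 1322 CPM (log2 ratio 0.99). FOLH1, the prostate-specific membrane antigen, which is a cell-surface and not a secreted member of the list, was at 939 and 562 CPM (0.74).

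These differences were shifts of whole distributions with wide overlap. ACPP in single cells ran from 62.0 to 19575 CPM with a median of 4938 in KLK2-high cells and from 0 to 11308 CPM with a median of 2482 in KLK2-low cells. The summed secretory genes had a median of 10699 CPM per KLK2-high cell (4305 to 32607) and 6049 CPM per KLK2-low cell (1797 to 21255). In all, 152 of 163 KLK2-high cells were above the median KLK2-low cell, and 14 of 163 KLK2-low cells were above the median KLK2-high cell. Not all members followed: PLA2G2A, a secreted phospholipase, was at 491 and 557 CPM (-0.18), and NPY, neuropeptide Y, was at 160 and 104 CPM (0.62) with 65.2% of its KLK2-low UMIs in 5 cells.

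**Figure D3:**
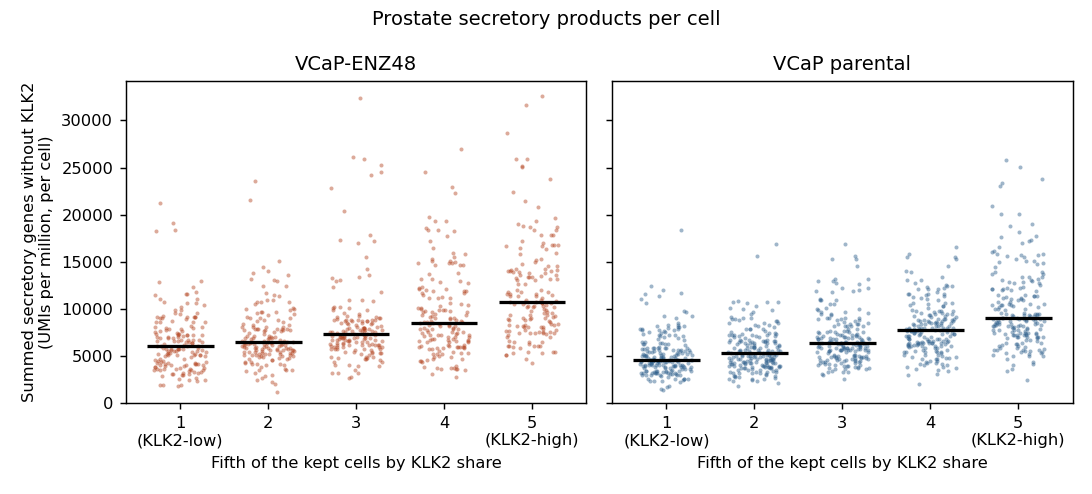
Summed level (CPM) of the prostate secretory genes other than KLK2 in each kept cell (points) by bin of the KLK2 ranking, with medians as bars, for VCaP-ENZ48 and VCaP parental. The VCaP-ENZ48 median went from 6049 CPM in the lowest to 10699 CPM in the highest bin, and the clouds of the ends overlap.

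Of the other kallikreins only KLK4 reached the level for comparison. KLK3 had few UMIs in this line (53 in KLK2-high and 15 in KLK2-low cells) and lay below the level for comparison, at 22.9 and 5.43 CPM, a log2 ratio of 1.90 (1.23 to 3.01). KLK3 is a close paralog of KLK2, and reads of one could be assigned to the other in counting, which was not tested. KLK4, a protease gene on the same chromosome, was at 313 and 338 CPM (-0.11, interval -0.25 to 0.03). KLK15 had 11 and 5 UMIs. Of the 8 compared genes within 1 Mb of KLK2, 2 were at least 1.5-fold higher and none lower, with a median log2 ratio of 0.07. Among all genes 5.22% were higher and 3.20% lower. The 2 higher genes near KLK2 were C19orf48 at 774 and 488 CPM (0.66) and EMC10, a subunit of the ER membrane protein insertase, with 139 and 105 UMIs (0.65). Chromosome medians lay between -0.02 (chromosome X) and 0.13 (chromosome 21), so no chromosome moved as a whole by more than these values.

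Androgen-induced genes were mixed but higher on balance. Of 59 listed genes, 37 were compared, with a list median 0.34 above all genes. At least 1.5-fold higher were 11 (29.7%, against 5.22% of all genes), and 3 (8.11%, against 3.20%) were lower. The metalloreductase STEAP1 was at 506 and 282 CPM (0.84, interval 0.71 to 0.97) and its relative STEAP2 at 455 and 257 CPM (0.82). SAT1, which acetylates spermidine and spermine for export, was at 640 and 357 CPM (0.84, interval 0.72 to 0.96). STEAP1 and SAT1 were thus each 1.79-fold higher in KLK2-high cells, with intervals that cover counting error only and not the variation between cells.

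Genes often read as markers of androgen signalling differed from one another. SLC45A3, the prostein gene, was at 39.0 and 13.4 CPM (90 and 37 UMIs, 1.47) and TMPRSS2 at 24.2 and 10.1 CPM (56 and 28 UMIs, 1.18, under the level for comparison), each under 1.5-fold in 1 of the 21 alternatives tried. FKBP5, a co-chaperone of steroid receptors, was at 29.0 and 28.2 CPM (0.04, interval -0.45 to 0.53). PMEPA1 was at 118 and 88.3 CPM (0.41). ERG, which the fusion ties to the TMPRSS2 promoter, was at 68.0 and 49.2 CPM (0.46, interval 0.13 to 0.81). The 3 members lower in KLK2-high cells were ATAD2, a chromatin regulator expressed in dividing cells (51.5 and 104 CPM), INSIG1, which restrains sterol synthesis (40.3 and 63.0 CPM), and GLRX2, a mitochondrial glutaredoxin (23.8 and 36.9 CPM). The glucocorticoid-responsive genes, of which 6 were compared, were split around a median 0.07 below all genes. At least 1.5-fold higher was 1 (16.7%, against 5.22% of all genes), and 2 (33.3%, against 3.20%) were lower. The 2 lower were MT1X (-1.79) and MT2A (-0.79), described below with the metallothioneins. SGK1 and TSC22D3 had at most 11 UMIs in either end.

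Luminal epithelial genes were higher by smaller amounts. All but 1 of the 14 compared genes were above 0, where 2621 of all 4850 genes were. Past 1.5-fold were 2 (14.3%, against 5.22% of all genes), with a list median 0.36 above all genes. CD9, a membrane tetraspanin, was at 729 and 459 CPM (0.67), and CLDN4, a tight junction claudin, at 307 and 183 CPM (0.74). EPCAM was at 381 and 306 CPM (0.32). Of 7 compared ETS factors 6 were above 0. Past 1.5-fold was 1 (14.3%, against 5.22% of all genes), SPDEF, at 109 and 67.7 CPM (0.68). The study's PROSGenesis list, a signature of tissue regeneration that it took from earlier work, had 8 of 38 compared genes higher (21.1%, against 5.22%) and none lower. Its median lay 0.27 above all genes, and it shares CD9, CDH1 and CTSH with the lists above and below.

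Lysosome and autophagy genes were evenly higher in KLK2-high cells. All 27 compared genes had log2 ratios above 0, as did 2621 of all 4850 genes compared. Of the 27, 4 (14.8%, against 5.22% of all genes) were past 1.5-fold, and the list median lay 0.44 above all genes. PSAP, the saposin precursor, was with 975 and 825 UMIs (0.50), CD63, a tetraspanin of late endosomes, at 570 and 425 CPM (0.42), and CTSH, a cathepsin, at 283 and 199 CPM (0.51). The 4 past 1.5-fold were HEXA (0.69), SCARB2 (0.67), LAMP2 (0.62) and CTSB (0.62). Summed lysosomal UMIs per cell had medians of 4018 CPM in KLK2-high and 2873 CPM in KLK2-low cells.

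The machinery of protein entry and folding in the ER differed little. None of 48 compared genes of ER entry and vesicle transport was past 1.5-fold either way (list median 0.07 above all genes), and of 21 genes of ER folding and the unfolded protein response 0 were higher and 1 lower (median 0.04 below). The ER folding median ran from -0.08 to 0.30 over the 21 alternatives and kept its sign in 11. HSPA5, the main ER chaperone, was at 858 and 890 CPM (-0.05, interval -0.14 to 0.03), and HSP90B1 at 1719 and 1921 CPM (-0.16). Of their KLK2-low UMIs, 30.6% (HSPA5) and 23.5% (HSP90B1) lay in 5 cells. Their medians per cell were instead higher in KLK2-high cells, 630 and 524 CPM for HSPA5 and 1482 and 1218 CPM for HSP90B1. CALR, a calcium-binding lectin chaperone, was at 695 and 481 CPM (0.53), and XBP1, a transcription factor of secretory cells, at 134 and 99.5 CPM (0.43). HSPA5, HSP90B1, CALR and XBP1 therefore lay within 1.5-fold of equal levels while ACPP and SPON2 differed by 1.89-fold and 1.98-fold.

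The 12 largest differences upward, among genes of at least 50 CPM in one end and with no more than 10% of UMIs from 1 cell, included few classical secretory genes. NSG1, a neuronal endosomal trafficking protein, led at 91.4 and 30.04 CPM (211 and 83 UMIs, log2 ratio 1.57, interval 1.23 to 1.99). BBS4 was at 278 and 101 CPM (643 and 279 UMIs, 1.45), and its median per cell was 219 and 62.9 CPM. SHROOM1, which binds actin, was at 104 and 37.6 CPM (1.44). RDH11 was at 1298 and 531 CPM (2999 and 1467 UMIs, 1.29), with single cells from 0 to 8337 CPM (median 1088) in KLK2-high and from 0 to 2365 CPM (median 417) in KLK2-low cells.

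The remaining 8 had log2 ratios from 1.05 to 1.40. In order these were the noncoding AC006504.1 (1.40), the cathepsin CTSF (1.23), GPAT3, an acyltransferase of triglyceride synthesis (1.16), the complement regulator CD55 (1.15), LRATD1 (1.08), RWDD2A (1.07), the secreted glycoprotein FSTL1 (1.07) and the water and glycerol channel AQP3 (1.05). GPAT3 was lower instead in the 24 against 24 cells whose barcodes ended in a base (-1.36), and CD55 and RWDD2A were under 1.5-fold in 1 alternative each.

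Genes that an earlier look at these libraries had found highest under ENZ were mostly higher in KLK2-high cells. Of 8 such genes 6 (75%, against 5.22% of all genes) were past 1.5-fold higher. Among them were CCN3, a matricellular protein (472 and 251 CPM, 0.91), FBLN2, fibulin-2 (262 and 152 CPM, 0.79), TSPAN8 (883 and 514 CPM, 0.78) and RGS4 (67.1 and 42.7 CPM, 0.64). The list was chosen on this same library and is no independent evidence. The other 2 were below 0, PLA2G2A at -0.18 (interval -0.29 to -0.07) and REG4, a secreted lectin, at 9.09 and 78.9 CPM (-2.98), and 97.3% of its KLK2-low UMIs lay in 5 cells. It was found in 14 KLK2-high and 11 KLK2-low cells, and in 1 cell of each end in VCaP parental. Without barcodes over 3 times the median depth its ratio was 0.17, so the REG4 difference rested on a few deep cells.

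Cell cycle genes held the largest differences downward, and a small number of cells carried them. Of 25 compared G2M genes, 21 (84.0%, against 3.20% of all genes) were at least 1.5-fold lower in KLK2-high cells and none higher, with a list median 1.36 below all genes. TOP2A, the mitotic topoisomerase, was at 16.0 and 296 CPM (37 and 819 UMIs, -4.13), MKI67 at 5.20 and 79.6 CPM (-3.70), CENPF, a kinetochore protein, at 9.09 and 156 CPM (-3.96), and HMGB2 at 73.6 and 452 CPM (-2.60). In KLK2-low cells 74.7% of TOP2A UMIs and 74.3% of CENPF UMIs lay in 5 cells, and 1 cell alone held 46.5% of TOP2A. Without barcodes over 3 times the median depth the G2M list median was -1.05 relative to all genes. The summed G2M genes had nearly equal medians per cell, 1021 CPM in KLK2-high and 1039 CPM in KLK2-low cells, but maxima of 8726 and 60491 CPM.

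At a level of 5000 G2M CPM, chosen after the values were seen, 15 of 163 KLK2-low cells and 1 of 163 KLK2-high cells lay above it. Over the 5 bins from low to high the numbers were 15, 5, 6, 0 and 1, and the 15 cells held 70.5% of the G2M UMIs of the KLK2-low end. The S phase list was lower by a median of 0.51, with 7 of 18 compared genes (38.9%, against 3.20% of all genes) past 1.5-fold lower. Its median was -0.047 in the 80% of cells with the fewest cell cycle UMIs. PCNA was at 71.9 and 131 CPM (-0.86). The study's Persist list, of which 10 genes were compared, had 6 lower (60%, against 3.20% of all genes), none higher and a median 1.77 below all genes. The most changed of them (CENPF, MKI67, PTTG1, CCNB1, CENPE) are mitotic genes. In the 80% of cells with the fewest cell cycle UMIs, a subset that is low in these genes by construction, the ratios of CENPF (0.09), HMGB2 (0.03), PCNA (0.12) and SMC4 (0.34) were above 0 and the G2M list median was -0.0014 relative to all genes.

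**Figure D4:**
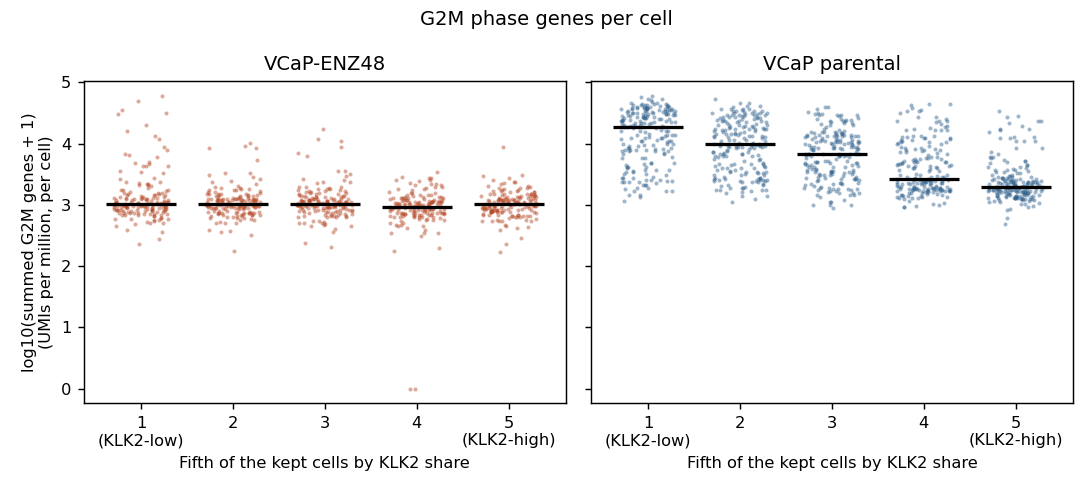
Log10 of the summed level (CPM) of G2M phase genes plus 1 in each kept cell (points) by bin of the KLK2 ranking, with medians as bars. In VCaP-ENZ48 the medians are level and only a scatter of cells stands above (15 of 163 cells over 5000 CPM in the lowest bin), and in VCaP parental the median falls from 18652 to 1985 CPM.

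The 12 largest differences downward by the same rule were smaller, from -0.96 to -0.79. They included HMGN2, a nucleosome-binding protein, at 197 and 386 CPM (-0.96), STMN1, a microtubule destabiliser, at 156 and 297 CPM (-0.92), TUBB at 103 and 187 CPM (-0.86), H2AZ1 at 224 and 398 CPM (-0.83) and DTYMK, a thymidylate kinase, at 41.1 and 73.5 CPM (-0.82). PTMA, prothymosin alpha, was at 590 and 1067 CPM (1363 and 2949 UMIs, -0.85). SNRPD1, a splicing protein (-0.80), the mitochondrial chaperonin HSPE1 (-0.79), TOMM5 of the mitochondrial import pore (-0.83), NME2, a nucleoside diphosphate kinase (-0.81), COMTD1 (-0.90) and PPIAP22 (-0.84) completed them. PTMA has many processed copies and PPIAP22 is itself a pseudogene copy of PPIA, so their counts are uncertain. The filter on single cells was applied to 3047 genes and left out TOP2A, MKI67, CENPF, HMGB2 and PCNA, among others.

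Without the most cyclic cells some of these differences went and others stayed. In the 80% of cells with the fewest cell cycle UMIs, STMN1 (0.03), H2AZ1 (0.21) and DTYMK (0.08) were no longer lower in KLK2-high cells. PTMA, NME2, HSPE1, SNRPD1 and TOMM5 were below 0 under every alternative, between -0.26 and -1.09. In contrast, ACPP, SPON2, RDH11, NSG1, BBS4, STEAP1, SAT1 and ITM2A were at least 1.5-fold higher under all 21 alternatives.

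Cytosolic ribosomal protein and nuclear-encoded respiratory chain genes were mostly lower in KLK2-high cells, by small amounts. Of 78 compared cytosolic ribosomal protein genes 72 were below 0, 1 of them past 1.5-fold, and the median was 0.30 below all genes. Among all 4850 genes compared, 2621 were above 0. RPS18 was at 9715 and 12149 CPM (-0.32) and RPL34 at 4035 and 5078 CPM (-0.33). Over the 5 bins ribosomal protein UMIs made up 24.4, 26.6, 25.9, 24.9 and 21.3% of UMIs, so the share did not fall step by step from the lowest bin. Of 74 nuclear-encoded respiratory chain genes 59 were below 0 (median 0.22 below all genes). The mitochondrially encoded mRNAs were divided, with 10 of 13 below 0, none past 1.5-fold and a median 0.20 below all genes, while the most abundant were above 0 (MT-CO1 0.24, MT-CO3 0.06 and MT-CYB 0.04) and the sums were nearly equal (57096 and 57070 CPM). Heat shock protein genes (0.23 below), the ATF4 amino acid response (0.25 below) and proteasome subunits (0.11 below) had at most 1 gene past 1.5-fold each.

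Immediate early and dissociation genes were above all genes by a median of 0.34, with 10 of 12 compared genes above 0 and 1 past 1.5-fold, and FOS was at 942 and 733 CPM (0.36). Several other lists lay near all genes. Hypoxia and glycolysis (0.04), polyamine genes (0.04), neuroendocrine genes (0.12) and nuclear-retained long noncoding RNAs (0.12) were above all genes by their medians, and cholesterol and fatty acid synthesis was 0.07 below. MALAT1, a nuclear noncoding RNA, was at 75434 and 62149 CPM (0.28), and NEAT1 at 2481 and 2033 CPM (0.29). Steroid-converting enzymes (0.26, 5 compared) and MHC class I genes (0.16, 6 compared) had none past 1.5-fold. Metallothioneins and zinc transporters were split. MT1X was at 28.6 and 101 CPM (66 and 280 UMIs, -1.79) and MT2A at 216 and 376 CPM (-0.79), each a small zinc-binding protein of a family with near-identical copies. Of their KLK2-low UMIs, 37.1% (MT1X) and 37.4% (MT2A) lay in 5 cells. MT2A had medians per cell of 166 and 183 CPM, and MT1X was found in 48 KLK2-high and 77 KLK2-low cells. The zinc exporter SLC30A4 was at 167 and 95.2 CPM (0.80). MYC was at 415 and 483 CPM (-0.22).

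VCaP parental, a library that the rule did not use, was ranked in the same way to set its values beside those of VCaP-ENZ48. It had 997 kept cells, with 199 KLK2-high cells at 3138 CPM and 199 KLK2-low cells at 425 CPM. Of 4689 genes compared, 228 (4.86%) were at least 1.5-fold higher and 411 (8.77%) lower, and 2171 had log2 ratios above 0. Genes higher made up 35.7% of those past 1.5-fold, 23.0% with TMM scaling, which placed the median of all genes at -0.12, and 56.1% without mitochondrial, ribosomal protein, MALAT1 and NEAT1 UMIs.

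Most genes past 1.5-fold in VCaP-ENZ48 differed the same way in VCaP parental. Of the 253 higher genes 174 were compared there, and 149 (85.6%) had the same sign, against 48.7% of the 4179 genes compared in both. Past 1.5-fold higher were 67 of the 174 (38.5%, and 29.4% of the 228 higher in VCaP parental), against 5.22% of all, and 1 was past 1.5-fold lower. Of the 155 lower genes 139 were compared, 119 (85.6%, against 51.3%) had the same sign, 67 (48.2%, and 16.3% of the 411 lower in VCaP parental) were past 1.5-fold lower, against 5.41% of all, and 4 past 1.5-fold higher. Across the 4179 genes, which are not independent replicates, Pearson's r between the log2 ratios was 0.58.

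Of 12 compared secretory genes 10 were above 0 in VCaP parental, against 11 in VCaP-ENZ48, and several named genes differed in size. ACPP was at 3340 and 959 CPM, a 3.48-fold difference against 1.89-fold in VCaP-ENZ48, and the log2 ratio of ERG was 1.64 against 0.46, NPY 1.37 against 0.62 and PMEPA1 1.05 against 0.41. RDH11 (0.57 against 1.29) and SPON2 (0.66 against 0.99) were smaller there, and BBS4 (1.72 against 1.45), SHROOM1 (1.81 against 1.44) and NSG1 (1.66 against 1.57) similar. NSG1 had 110 UMIs in KLK2-high and 33 in KLK2-low cells of VCaP parental, under the level for comparison. The list medians were 0.74 above all genes for secretory products, 0.42 for androgen-induced genes, 0.32 for lysosome and autophagy genes and 0.19 for luminal genes. No difference between the libraries was tested, since each was 1 library.

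The cell cycle difference had another form in VCaP parental. Of 52 compared G2M genes 51 (98.1%, against 8.77% of all genes) were past 1.5-fold lower in KLK2-high cells. The median per cell of the summed G2M genes was 1985 CPM in KLK2-high and 18652 CPM in KLK2-low cells. Cells above 5000 G2M CPM numbered 154, 137, 117, 69 and 28 from the lowest to the highest bin, so there the difference lay in most cells. The cytosolic ribosomal protein genes were 0.20 above all genes, with 73 of 79 above 0, where in VCaP-ENZ48 they were 0.30 below. Several single genes also differed in sign between the libraries: MYC was 0.66, NME2 0.22, MT1X 0.24 and CD9 -0.10 in VCaP parental. The ER chaperones HSPA5 (-0.65 against -0.05) and HSP90B1 (-0.68 against -0.16) were below 0 in both by summed UMIs. In VCaP-ENZ48 their medians per cell were higher in KLK2-high cells.

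**Figure D5:**
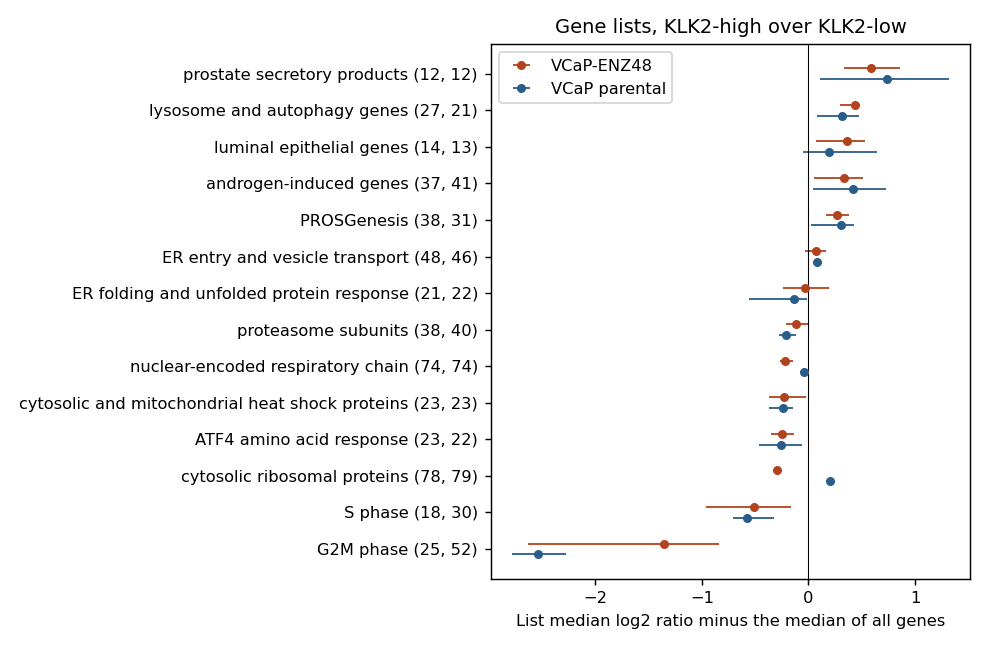
Median log2 ratio of CPM + 1, KLK2-high over KLK2-low, of each gene list minus the median of all genes, with the order-statistic 95% interval over the list's genes, and the numbers of genes compared in VCaP-ENZ48 and VCaP parental in parentheses. Secretory products are above 0 in both libraries (0.59 and 0.74), G2M genes below 0 in both (-1.36 and -2.54), and cytosolic ribosomal proteins on opposite sides (-0.30 and 0.20).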

How the data were processed

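Single-cell RNA was measured by Drop-seq in 3 libraries, 1 per condition. Alignment to GRCh38 (STAR) and counting (Drop-seq tools, Picard) were done by the authors, who deposited whole-number UMI counts for 1000 barcodes in each library. VCaP-ENZ48 held 14544855 UMIs in all and 4016 to 117469 per kept cell. Doublets were not identified, and an alternative left out barcodes over 3 times the median depth. Cells and ends were chosen as given above, with ties in column order. UMIs were summed per end and scaled to CPM, and ratios are log2 ratios of CPM + 1, with exact Poisson and exact conditional intervals (Python 3.11.15, scipy 1.17.1; TMM in edgeR 4.0.16). No test was made, because cells are not replicates. The ratio and interval were tested on simulated pools of Poisson counts, which lack the variation between cells of the real data.

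Named genes were the 12 largest differences each way by the rule above, the 3 most abundant compared genes of each list, 25 fixed genes and genes within 1 Mb of KLK2; others (INSIG1, GLRX2, STEAP2, CLDN4, EPCAM, KRT8, HEXA, SCARB2, LAMP2, CTSB, PTTG1, CCNB1, CENPE and SLC30A4) were named after their values were seen. The members, lists and tests were chosen with earlier results of these data known. S and G2M genes came from Seurat and PROSGenesis and Persist from the study. Symbols were matched also through RefSeq synonyms. Some chosen genes and lists are not reported here. VCaP parental was ranked likewise; LNCaP-ENZ168 was not, since 632 of its 743 kept cells had no KLK2 UMI.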

Additional observations from a re-analysis of the deposited data

Results flagged for a closer look

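In the library LNCaP-ENZ168, which entered no comparison, KLK2 was present at 27.9 CPM (156 UMIs in 743 kept cells, interval 23.7 to 32.6 CPM), against 3054 CPM in VCaP-ENZ48. Of the genes past 1.5-fold in VCaP-ENZ48, 5 were past 1.5-fold in the opposite direction in VCaP parental. C15orf48 had a log2 ratio of 0.67 in VCaP-ENZ48 (96 and 71 UMIs) and -0.84 in VCaP parental, and 52.1% of its KLK2-high UMIs lay in 5 cells. DLL3, a Notch ligand of neuroendocrine tumours, had -0.97 (44 and 106 UMIs) and 0.77. The antisense RNAs ELFN1-AS1 (-0.72 and 0.91) and PRKAG2-AS1 (-0.67 and 0.94) and the T cell receptor constant gene TRGC1 (-0.59 and 0.63) were likewise lower in KLK2-high cells of VCaP-ENZ48 and higher in those of VCaP parental. In VCaP-ENZ48, 46.3% of the KLK2-low UMIs of TRGC1 lay in 5 cells. Its median per cell there was higher in KLK2-high cells (61.2 and 51.0 CPM). Among the lists, cytosolic ribosomal proteins (-0.30 and 0.20) and MHC class I presentation (0.16 and -0.20) had medians on opposite sides of all genes in the 2 libraries. With 1 library each, none of these differences was tested.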

How the results depend on the processing

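Each value was recomputed under 21 alternatives, 1 of them (the 50% of cells with the fewest cell cycle UMIs) chosen after the data were seen. In VCaP-ENZ48, 2406 of the recomputed gene ratios stayed within the counting interval of the main value, 500 moved outside it and 24 reversed; among list medians 561, 45 and 2 did so. The medians of secretory products, androgen-induced, luminal and lysosomal genes stayed above all genes and those of ribosomal and respiratory genes below under every alternative that gave a value. The S phase median (-0.51) was near all genes in the 80% (-0.047) and 50% (-0.010) of cells with the fewest cell cycle UMIs, as was the G2M median (-1.36) at -0.0014 and -0.115. With 253 and 155 genes past 1.5-fold higher and lower as the main counts, and 0.03 as the median of all genes, 10% of cells gave 467 and 371 (median 0.0069), 30% of cells 152 and 97 (0.049), thinning to 4000 UMIs 563 and 362 (0.00), barcodes ending in a base 631 and 265 (0.086), a minimum of 10 CPM 575 and 373 (0.048) and a minimum of 100 CPM 73 and 38 (-0.025, with the androgen-induced median at 0.57). Equal weight per cell gave 391 higher (median 0.051), omission of mitochondrial, ribosomal protein, MALAT1 and NEAT1 UMIs 294 lower (-0.0089), and the 80% of cells with the fewest cell cycle UMIs 101 lower (0.053). Some of these settings also changed the number of genes compared. A minimum of 10 CPM compared 8054 genes (7.14% higher and 4.63% lower), against 4850 (5.22% and 3.20%) in the main setting. A minimum of 100 CPM compared 1405 (5.2% and 2.7%), and the omission of those UMIs 6303 (4.84% and 4.66%). The median was 0.049 without barcodes over 3 times the median depth, -0.00022 with TMM and -0.00041 with median-of-ratios scaling. Fewer cells or UMIs widen counting error, and the share of cells taken also sets how far apart the ends lie in KLK2. The cause of the changes in these counts was not tested.

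In VCaP parental, against 228 higher and 411 lower, 10% of cells gave 373 higher, 30% 131 higher, the omission of the same UMIs 544 higher (median of all genes 0.076), barcodes ending in a base 504 and 837, TMM 151 higher, a minimum of 10 CPM 602 higher (median 0.023), a minimum of 100 CPM 54 and 157, and the 50% least cyclic cells 195 lower. Of 4689 genes in the main setting, 4.86% were higher and 8.77% lower. A minimum of 10 CPM compared 7331 genes (8.21% higher) and a minimum of 100 CPM 1621 (3.3% higher and 9.7% lower). The omission of those UMIs compared 5662 (9.61% higher). Median-of-ratios scaling placed the median in VCaP parental at 0.00011.

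With barcodes ending in a base, the log2 ratio was -0.12 for EMC10, -1.36 for GPAT3, 0.44 for MT1E, 0.45 for MT2A and -0.84 for NPY, and in VCaP parental -0.80 for AC006504.1, -1.39 for KLK15 and -2.09 for TSC22D3. REG4 was at 0.17 without barcodes over 3 times the median depth. In the 80% of cells with the fewest cell cycle UMIs, ATAD2 was at 0.66, CENPF 0.093, DTYMK 0.078, H2AZ1 0.21, HMGB2 0.029, PCNA 0.12, SMC4 0.34, STMN1 0.030 and TUBB4B 0.076. In the 50% subset, ATAD2 was at 1.19, CENPF 1.66, H2AZ1 0.36, HMGB2 0.31, PCNA 0.26, REG4 0.49, SMC4 0.30, TOP2A 1.13 and TSC22D3 -0.30, and the medians of immediate early genes (-0.00061) and Persist (0.0036) changed side. In VCaP parental the same subset gave ELF3 -0.11, MYC -0.16, ER entry and vesicle transport -0.050 and mitochondrially encoded mRNAs -0.0074. These subsets are low in cell cycle UMIs by construction. No paired analysis was possible because every condition is a single library, which also leaves no replicate to omit. Depth limits genes near the minimum of 25 CPM.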
